A study of Mus musculus with 15 samples.

Results

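Genes of the cell division cycle were examined in mouse kidney as a set of 51 named members among the 24421 gene symbols of the expression table. The members were named by symbol, with earlier results of these data known, and all 51 were found. They fall into 9 genes of G1 and of the G1/S transition, 11 genes of S phase and 31 genes of G2 and mitosis. All 51 passed the filter on low counts, and 16752 of the symbols did so in all.

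The kidneys came from mice of wild-type genotype, 14 days after surgery. The sham group had a sham operation and normal diet (sham, n = 3), the UUO group had unilateral ureteral obstruction and normal diet (UUO, n = 6), and the UUO_Si group (n = 6) had the same obstruction while eating a diet that held a Si-based agent. Tying the ureter dams urine back into that kidney, and tubule injury, inflammation and scarring follow. The agent was not given to any sham-operated group, so operation and diet both separate UUO_Si from sham. The labels name no strain, sex, age or dose, and nothing in them says that the samples of a group came from separate animals, so p-values measure only the spread between these samples.

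Cell division is driven by cyclins, which bind and switch on cyclin-dependent kinases (CDKs). D cyclins with CDK4 or CDK6, then E cyclins with CDK2, release E2F transcription factors from the retinoblastoma protein, and E2F factors turn on the genes of DNA replication. A later wave of transcription, carried by FOXM1, MYBL2 and the MuvB complex, supplies the genes of the spindle, the centromere and cytokinesis. In healthy adult kidney few cells divide. After injury surviving tubule cells re-enter the cycle, some halt in G2 and mitosis, and fibroblasts and macrophages in the interstitium multiply as well.

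Library totals, in units of 1000000 counts, ran from 5.53 to 15.4. The unit of level is CPM, the count scaled to a library of 1000000 counts after TMM correction. A set of 4 libraries, written sham 3, UUO 5, UUO 6 and UUO_Si 6, stood apart: they had counts in 791 to 1264 of the 1463 olfactory and vomeronasal receptor genes in the table, against 84 to 139 in the other 11. Sham 3 was also the shallowest library and had the highest sham level for 33 of the 51 members. UUO_Si 3 had the highest level of its own group for 33 members. Where a named gene in UUO against sham changed its call or moved by over 1.5 times without sham 3 or without all 4, the value without them stands beside it.

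Markers of kidney cell types were detected in every group and shifted with obstruction. All 10 proximal tubule markers fell in UUO against sham, with sums of 15488 to 18794 CPM across sham libraries, 1005 to 1862 CPM across UUO libraries and 788 to 2197 CPM across UUO_Si libraries. All 9 macrophage markers rose, with sums of 128 to 186 CPM in sham libraries, 1023 to 1322 CPM for UUO and 938 to 1411 CPM for UUO_Si. All 7 fibroblast markers rose, with sums of 280 to 401, 4182 to 7946 and 3714 to 5203 CPM. Of 7 T cell markers 5 rose, with sums of 6.71 to 26.1, 33.4 to 72.3 and 46.4 to 70.1 CPM, and all 7 urothelial markers rose, with sums of 8.17 to 20.5, 77.6 to 217 and 79.4 to 155 CPM. No marker of these lists was at 0 throughout sham or throughout the obstructed groups. Among sham libraries, sham 3 had the highest sums for fibroblasts, macrophages and T cells (401, 186 and 26.1 CPM), and for B cells and neutrophils. Its sums were the lowest of sham for proximal tubule, loop and distal tubule, collecting duct, podocyte, endothelial and erythroid markers. In whole tissue, more cells of a type and more RNA per cell cannot be told apart, and the part of these cell types in the changes below was not tested.

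The comparison of UUO with sham asks what obstruction does to these genes on the normal diet. The cell cycle genes rose in most cases, and the rise was larger in the median from G1 to S phase to mitosis. Of the 51 members 40 rose and 4 fell (Ccnd1, Tyms, Kif23 and Pttg1) at an adjusted p under 0.05 in edgeR's quasi-likelihood test, where 27.5% of all 16752 genes were called higher and 26.4% lower. Among G1 and G1/S genes 4 of 9 rose and 1 fell, with a median log2 fold change of 0.46. Among S phase genes 10 of 11 rose and 1 fell, with a median of 1.24. Among genes of G2 and mitosis 26 of 31 rose and 2 fell, with a median of 1.77, and the median over all genes tested was -0.04. For 38 of the 51 members every UUO library lay above every sham library, as it did for 24.6% of all genes tested. The 38 were 4 of the G1, 10 of the S phase and 24 of the mitotic genes. The medians describe the lists, and no test was made between them. Sham 3 touched the mitotic and S phase medians most: without it they were 2.27 and 1.40, the G1 median was 0.42, and 42 members rose and 3 fell. Without all 4 libraries with receptor gene counts the 3 medians were 0.49, 1.39 and 2.22.

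**Figure D1:**
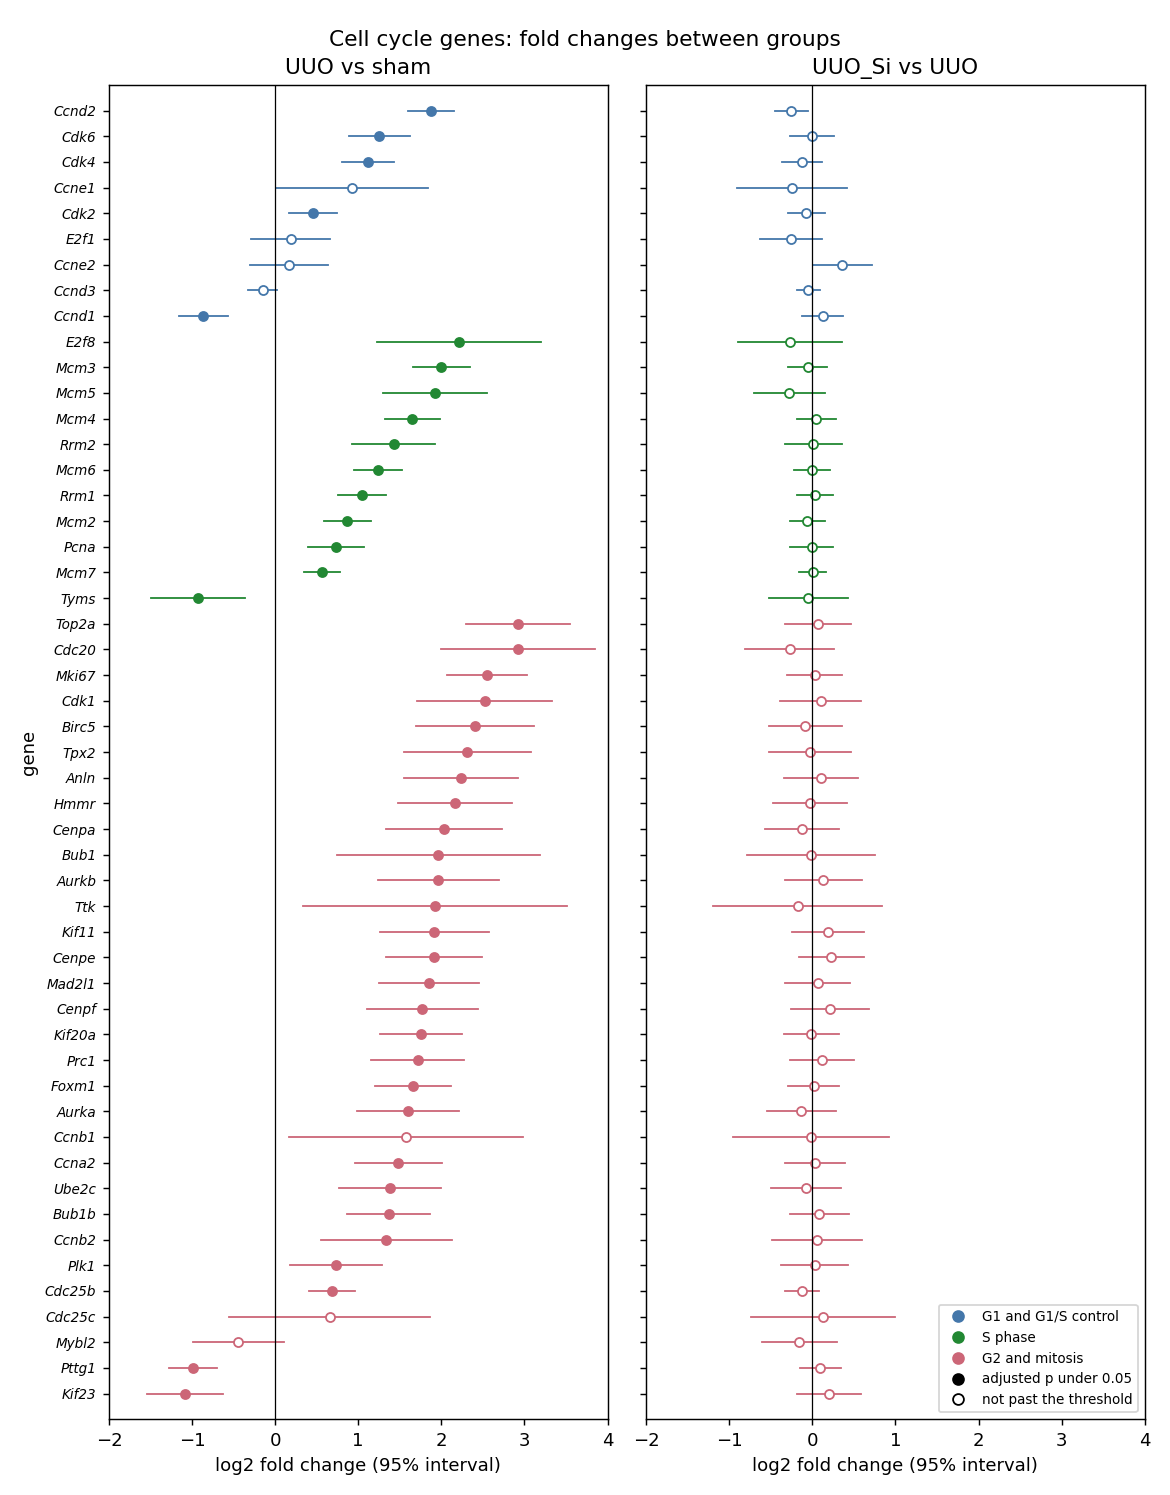
Log2 fold change of each of the 51 genes (points) with its 95% interval (lines), UUO against sham on the left and UUO_Si against UUO on the right, coloured by phase and filled where the adjusted p was under 0.05. On the left most S phase and mitotic genes lie to the right of 0 with filled points of Ccnd1, Tyms, Pttg1 and Kif23 to the left, and on the right no point is filled.

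The D cyclins, which start the cycle in response to growth signals, moved apart from each other. Ccnd1, which encodes cyclin D1 (GRCm38 chromosome 7, 144929931 to 144939925, minus strand), was at 156, 170 and 163 CPM in the sham libraries. It ran from 77 to 103 CPM in UUO with a median of 90.1, and from 67.1 to 116 CPM in UUO_Si with a median of 105. All 12 obstructed libraries lay below all sham libraries. Ccnd1 fell in UUO, with a log2 fold change of -0.86 ± 0.14 (SE; adjusted p = 6.00e-05).

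Ccnd2, which encodes cyclin D2 (chromosome 6, 127125162 to 127152193, minus strand), went the other way. It was at 26.2, 28.1 and 25.2 CPM in sham and ran from 79 to 110 CPM in UUO with a median of 96.5. In UUO_Si it ran from 67.3 to 92.5 CPM with a median of 81.6. The sham libraries lay close together and far under all obstructed libraries, and the rise in UUO was 3.67-fold (log2 fold change 1.87 ± 0.13; adjusted p = 3.91e-09). Ccnd3, which encodes the remaining D cyclin, had a log2 fold change of -0.15 ± 0.08 (adjusted p = 0.141). Exons of all 3 D cyclin genes overlap a gene on the other strand. So do those of Cdk2, Cdk4, Cdk6, Ccne2, Mcm7, E2f8, Cdc20, Cdc25b, Cdc25c, Plk1 and Ube2c below. Whether reads of both strands were counted together is not given in the sources used here.

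Counted per kilobase of exon, so that the genes can be set beside each other, the summed level of the D cyclin genes was 43.2 ± 1.26 CPM per kb in sham (SD, n = 3), 34.5 ± 2.65 in UUO and 34.4 ± 4.34 in UUO_Si (n = 6 each). Ccnd1 made up 80.2% ± 1.15 of that sum in sham, 55.1% ± 2.83 in UUO and 59.8% ± 5.67 in UUO_Si. The share of Ccnd2 was 6.52% ± 0.26, 29.9% ± 2.67 and 25.5% ± 4.77. In single libraries the Ccnd2 share was 6.23% to 6.71% for sham, 26.2% to 32.6% for UUO and 21.4% to 34.1% for UUO_Si, so the obstructed groups overlapped each other and not sham. Ccnd1 stayed the D cyclin gene with the highest level per kilobase in all 3 groups, and Ccnd3 held 13.3%, 15.01% and 14.6%.

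The kinases that partner the G1 cyclins all rose. Cdk6 was at 23.8, 23.0 and 17.6 CPM in sham, ran from 40.3 to 61.9 CPM in UUO with a median of 52.0 and from 37.8 to 56.5 CPM in UUO_Si with a median of 53.2. Cdk4 was at 29.7, 31.3 and 23.5 CPM in sham, ran from 51.3 to 73.1 CPM in UUO with a median of 59.7 and from 46.7 to 68.3 CPM in UUO_Si with a median of 55.9. For both genes no obstructed library reached down to the sham range. The log2 fold changes in UUO were 1.26 ± 0.17 for Cdk6 (adjusted p = 9.62e-06) and 1.12 ± 0.15 for Cdk4 (adjusted p = 7.40e-06), and that of Cdk2, the partner of the E cyclins, was the lowest of the kinases at 0.46 ± 0.14 (adjusted p = 0.00953).

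The E cyclin genes and E2f1, the activator at the entry into S phase, did not pass the test in UUO with all libraries. Ccne2 was at 6.59, 4.48 and 6.25 CPM in sham, ran from 5.20 to 8.03 CPM in UUO with a median of 6.45 and from 5.91 to 11.1 CPM in UUO_Si with a median of 8.20. The groups overlapped, and its log2 fold change in UUO was 0.17 ± 0.22 (adjusted p = 0.538). Ccne1 had 0.92 ± 0.43 (adjusted p = 0.0834), with only 5 to 12 counts in a sham library, and E2f1 had 0.19 ± 0.23 (adjusted p = 0.498). A rise of Ccne1 by 1.84 on the log2 scale lay within its 95% interval, so these data do not bound it closely. Without sham 3 Ccne1 passed, with 1.32 ± 0.50 (adjusted p = 0.0362).

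In S phase all genes of the replicative helicase rose. The MCM2 to MCM7 proteins form the ring that unwinds DNA at the replication fork, and all 6 of their genes rose, from 0.56 ± 0.10 on the log2 scale for Mcm7 to 2.0 ± 0.16 for Mcm3. Mcm3 (chromosome 1, 20802968 to 20820312, minus strand) was at 7.74, 7.83 and 12.9 CPM in sham, ran from 32.7 to 41.9 CPM in UUO with a median of 38.3 and from 29.7 to 40.6 CPM in UUO_Si with a median of 36.3. The lowest obstructed library was well over the highest sham library, and the adjusted p in UUO was 2.16e-08. Mcm4 was at 9.89, 10.1 and 11.2 CPM in sham and ran from 27.6 to 36.6 CPM in UUO (median 33.5) and from 26.7 to 39.9 CPM in UUO_Si (median 34.9). Its log2 fold change in UUO was 1.65 ± 0.16 (adjusted p = 1.40e-07), again without overlap.

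Mcm6 (chromosome 1, 128331590 to 128359664, minus strand) was at 22.6, 23.3 and 31.3 CPM in sham, ran from 55.2 to 64.6 CPM in UUO with a median of 60.7 and from 50.3 to 71.8 CPM in UUO_Si with a median of 59.6. It rose by 1.24 ± 0.14 on the log2 scale (adjusted p = 8.02e-07). Mcm5 was at 2.58, 5.75 and 7.39 CPM in sham, ran from 15.2 to 25.0 CPM in UUO with a median of 19.0 and from 9.63 to 20.6 CPM in UUO_Si with a median of 16.6, and its log2 fold change in UUO was 1.93 ± 0.30 (adjusted p = 3.38e-05). Neither gene had an obstructed library within the sham range. The subunit genes rose unequally, and their levels per kilobase drew together: the highest subunit gene was 5.94 times the lowest in sham (Mcm7 over Mcm5), 2.95 times in UUO (Mcm6 over Mcm2) and 3.20 times in UUO_Si (Mcm6 over Mcm5). Mcm7 shares exon positions with the microRNA genes Mir25 and Mir93 on its own strand and with Cops6 and Ap4m1 on the other, so its count may hold reads of those genes.

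The promoters of Mcm3 and Mcm6 are shown because they carry the E2F motif of replication genes. The windows run from 250 bases before to 50 bases after the RefSeq start on GRCm38.p6, at chr1:20820263-20820562 for Mcm3 and chr1:128359656-128359955 for Mcm6, both on the minus strand. Capitals mark the E2F motifs searched (TTTCCCGC, TTTGGCGC, TTTCGCGC or TTCCCGCC) and the CCAAT box (CCAAT), on either strand, where runs of more than 8 capitals are overlapping matches. Each is written 5′ to 3′ on the strand of its gene.
Mcm3: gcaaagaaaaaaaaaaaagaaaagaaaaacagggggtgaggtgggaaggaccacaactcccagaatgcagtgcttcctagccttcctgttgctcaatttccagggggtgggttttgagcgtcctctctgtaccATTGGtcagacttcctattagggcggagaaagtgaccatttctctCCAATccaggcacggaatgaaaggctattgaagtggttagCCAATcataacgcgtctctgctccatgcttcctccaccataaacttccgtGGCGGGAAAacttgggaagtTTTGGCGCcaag
Mcm6: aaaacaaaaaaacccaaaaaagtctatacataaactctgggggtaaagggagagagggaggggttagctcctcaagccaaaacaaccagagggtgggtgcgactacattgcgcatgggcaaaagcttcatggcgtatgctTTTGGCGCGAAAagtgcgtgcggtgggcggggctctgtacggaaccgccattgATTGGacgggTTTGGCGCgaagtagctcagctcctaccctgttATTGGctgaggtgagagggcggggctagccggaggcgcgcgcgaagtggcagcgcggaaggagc
The Mcm3 window holds overlapping E2F matches from 18 bases past the start and another at 38 bases past it, with 3 CCAAT boxes upstream. In the Mcm6 window overlapping E2F matches begin 110 bases before the start and a further match begins 47 bases before it.

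Other S phase genes rose less evenly. Pcna, the sliding clamp of DNA polymerases, and Rrm1 and Rrm2, the subunits of ribonucleotide reductase, rose, from 0.73 ± 0.16 for Pcna to 1.42 ± 0.23 for Rrm2 on the log2 scale. E2f8, a repressor that shuts E2F targets off late in S phase, had the largest log2 fold change of the list at 2.22 ± 0.47 (adjusted p = 0.00067), and 3.36 ± 0.49 without sham 3. It was at 0.573, 0.959 and 3.79 CPM in sham, ran from 5.71 to 9.24 CPM in UUO with a median of 8.08 and from 3.98 to 11 CPM in UUO_Si with a median of 5.48. All obstructed libraries lay above sham 3, the highest sham library, although the lowest UUO_Si library was close to it.

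Tyms, which encodes thymidylate synthase, was the S phase gene that fell (log2 fold change -0.93 ± 0.27; adjusted p = 0.0074). Its size and call depended on which libraries were kept. It was at 98.3, 92.2 and 219 CPM in sham, ran from 46.4 to 114 CPM in UUO with a median of 66.8 and from 60.4 to 82.5 CPM in UUO_Si with a median of 67.9. Sham 3 stood far above all other libraries and the highest UUO library lay above the other sham libraries. Without sham 3 the log2 fold change was -0.41 (adjusted p = 0.175), while without all 4 libraries with receptor gene counts it was -0.51 (adjusted p = 0.0255). Tyms values were fractional in all 15 libraries, so part of its reads may have been shared with other positions.

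Mitotic genes held the largest rises. Mki67, which encodes Ki-67, a coat protein of mitotic chromosomes used as the standard marker of proliferating cells (chromosome 7, 135689784 to 135716361, minus strand), was at 26.4, 18.1 and 38.6 CPM in sham. It ran from 137 to 188 CPM in UUO with a median of 162, and from 136 to 243 CPM in UUO_Si with a median of 148. The obstructed libraries were all more than 3 times the highest sham library. The rise in UUO was 5.85-fold in mean level (log2 fold change 2.55 ± 0.23; adjusted p = 6.37e-08), and among mitotic genes Mki67 had the highest level per kilobase in UUO, at 16.1 CPM per kb.

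Top2a, which encodes the topoisomerase that untangles chromosomes before they part (chromosome 11, 98992943 to 99024189, minus strand), had the largest fitted log2 fold change of the members with all libraries, close to that of Cdc20. It was at 6.88, 5.43 and 12.3 CPM in sham, ran from 51.3 to 75.5 CPM in UUO with a median of 61.2 and from 46.9 to 104 CPM in UUO_Si with a median of 61.5. There was no overlap with sham, and the rise in UUO was 7.49-fold (2.93 ± 0.30 on the log2 scale; adjusted p = 2.72e-07). Without sham 3 it was 3.32, and the fitted values of Ccnb1, Cdc20, E2f8 and Ttk were then higher.

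Of CDK1 and its regulators, which form the switch into mitosis, 4 of 6 rose. Cdk1 itself had 2.52 ± 0.38, the highest log2 fold change of these with all libraries. Cdc25b, a phosphatase that activates CDK1, had 0.69 ± 0.13 (adjusted p = 0.000251), with 21.5, 22.2 and 19.5 CPM in sham, 27.5 to 39.9 CPM in UUO (median 33.9) and 28.6 to 34.2 CPM in UUO_Si (median 30.8). Its rise was small but the obstructed libraries all lay above sham. Cdc25c, of the same family, had 0.66 ± 0.57 (adjusted p = 0.348) and only 3 to 6 counts in a sham library.

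Ccnb1, which encodes cyclin B1, did not pass (1.58 ± 0.67; adjusted p = 0.0553), and its sham libraries disagreed. It had 2, 1 and 33 counts in sham, against 52 to 124 counts in UUO libraries and 29 to 94 in UUO_Si libraries. Sham 3 thus lay within the range of the obstructed libraries in CPM, at 6.25 against 4.0 to 10.3 CPM in UUO, and the other sham libraries lay far below. Without sham 3 the adjusted p of Ccnb1 was 3.04e-05. The UUO libraries together were then 27.3 times sham 1 and sham 2 together (95% exact binomial interval 9.30 to 133), which rests on 3 sham counts and covers counting error only. Ttk, a spindle checkpoint kinase, had the same form, with 0, 0 and 13 counts in sham against 26 to 47 counts in UUO. It passed with all libraries (1.93 ± 0.75; adjusted p = 0.0391), and without sham 3 the UUO mean was at least 3.67 higher on the log2 scale, taking 3 counts over sham 1 and sham 2 as the limit that their counts of 0 allow. Ttk also lost its call in UUO without any of sham 1, sham 2, UUO 1, UUO 4 or UUO 5 (adjusted p = 0.0536 to 0.146).

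The other mitotic groups rose nearly throughout. The Polo and Aurora kinases and Birc5 (survivin, a partner of Aurora B) rose in 4 of 4 cases, from 0.73 ± 0.26 for Plk1 to 2.40 ± 0.34 for Birc5. The spindle checkpoint genes, which hold back anaphase until all chromosomes are attached, rose in 4 of 4 cases, from 1.37 ± 0.24 for Bub1b to 1.97 ± 0.58 for Bub1. Without sham 3 Bub1 was at 3.25 ± 0.67, and Ttk, at no less than the limit given above, was the highest of them. The centromere genes rose in 3 of 3 cases, from 1.77 ± 0.32 for Cenpf to 2.03 ± 0.33 for Cenpa. Without sham 3 their order changed, to 2.30 for Cenpe, 2.41 for Cenpa and 2.47 for Cenpf. Cenpe, a kinesin that carries chromosomes to the spindle equator, was at 6.02, 7.19 and 12.9 CPM in sham, 26.6 to 38.2 CPM in UUO (median 33.2) and 29.2 to 63.4 CPM in UUO_Si (median 33.2), a rise of 1.92 ± 0.27 in UUO (adjusted p = 1.43e-05) without overlap. Without the 4 libraries with receptor gene counts, Plk1 and the cyclin gene Ccnb2 no longer passed in UUO against sham. Plk1 then had 0.75 ± 0.33 (adjusted p = 0.0592), and Ccnb2 had 0.97 ± 0.42 (adjusted p = 0.0608) against 1.34 with all libraries. Plk1 also lost its call without sham 1, sham 2 or UUO 1 (adjusted p = 0.0516 to 0.115).

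Genes of anaphase and cytokinesis held the mitotic genes that fell. Cdc20, the activator of the anaphase-promoting complex, rose by 2.92 ± 0.44 (3.83 ± 0.50 without sham 3) and Ube2c, the ubiquitin-conjugating enzyme of that complex, by 1.38 ± 0.29. Pttg1, which encodes securin, the inhibitor that the complex destroys to let sister chromatids part, fell by 0.99 on the log2 scale (SE 0.14; adjusted p = 1.05e-05). It was at 25.4, 22.1 and 22.0 CPM in sham, ran from 10.04 to 14.3 CPM in UUO with a median of 11.4 and from 10.4 to 14.8 CPM in UUO_Si with a median of 12.1. All obstructed libraries lay below all sham libraries. In sham Pttg1 had the highest level per kilobase of the mitotic genes, at 11.6 CPM per kb.

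Of 7 genes of the spindle and of cytokinesis 6 rose, up to 2.31 ± 0.36 for Tpx2, an activator of Aurora A on spindle microtubules, which had 3.14 ± 0.35 without sham 3. The exception was Kif23, which encodes the kinesin MKLP1 of the central spindle (chromosome 9, 61915905 to 61946774, minus strand). Kif23 was at 42.6, 61.4 and 31.6 CPM in sham, ran from 14.1 to 24.1 CPM in UUO with a median of 22.2 and from 15.7 to 32.9 CPM in UUO_Si with a median of 25.3. It fell in UUO with a log2 fold change of -1.09 ± 0.22 (adjusted p = 0.000417), with no UUO library within the sham range, while the highest UUO_Si library lay just above sham 3. Without sham 2 the fall in UUO_Si against sham no longer passed (log2 fold change -0.59; adjusted p = 0.0514).

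Among the transcription factors of the mitotic wave, Foxm1 rose and Mybl2 did not pass. Foxm1 was at 4.59, 2.56 and 5.30 CPM in sham, ran from 11 to 15.4 CPM in UUO with a median of 12.7 and from 11.2 to 15.5 CPM in UUO_Si with a median of 13.2. Its log2 fold change in UUO was 1.66 ± 0.22 (adjusted p = 4.81e-06), without overlap. Mybl2 had -0.44 ± 0.26 (adjusted p = 0.161).

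The promoters of Mki67, Top2a and Kif23 are shown because all carry the CHR element (TTTGAA) known from mitotic genes, although 2 of the genes rose and Kif23 fell. The windows are at chr7:135716330-135716629, chr11:99024140-99024439 and chr9:61946750-61947049 on GRCm38.p6, all on the minus strand. Capitals mark the CHR element and the CCAAT box on either strand.
Mki67: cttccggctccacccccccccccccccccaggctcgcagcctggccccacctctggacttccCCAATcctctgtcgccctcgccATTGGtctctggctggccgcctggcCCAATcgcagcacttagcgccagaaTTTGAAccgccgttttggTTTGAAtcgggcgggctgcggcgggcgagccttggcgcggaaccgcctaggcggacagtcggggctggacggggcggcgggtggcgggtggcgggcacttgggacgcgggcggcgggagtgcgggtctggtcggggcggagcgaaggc
Top2a: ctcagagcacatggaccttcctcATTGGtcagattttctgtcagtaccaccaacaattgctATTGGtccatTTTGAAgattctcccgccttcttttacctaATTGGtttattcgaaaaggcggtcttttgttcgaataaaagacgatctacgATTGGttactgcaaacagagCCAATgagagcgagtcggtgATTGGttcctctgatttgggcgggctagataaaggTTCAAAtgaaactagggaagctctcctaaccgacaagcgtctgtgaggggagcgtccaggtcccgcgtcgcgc
Kif23: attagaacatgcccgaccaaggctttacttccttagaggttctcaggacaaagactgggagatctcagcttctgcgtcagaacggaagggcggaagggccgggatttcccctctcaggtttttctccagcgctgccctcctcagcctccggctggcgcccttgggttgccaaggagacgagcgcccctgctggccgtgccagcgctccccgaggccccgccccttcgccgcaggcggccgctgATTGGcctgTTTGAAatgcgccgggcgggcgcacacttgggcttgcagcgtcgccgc
In Mki67 the CHR matches begin 116 and 98 bases before the start, in Top2a 179 and 23 bases before it, and in Kif23 2 bases past it. The Top2a window holds 6 CCAAT boxes, that of Mki67 3 and that of Kif23 1.

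RefSeq windows were given for 41 of the 51 members, and those of Aurkb, Ccna2, Ccnd1, Ccnd2, Ccne2, Cdc25c, Foxm1, Kif20a, Mcm4 and Tpx2 were not analysed here. Mitotic genes held the CHR element in 17 of 25 cases (68%), S phase genes in 2 of 10 and G1 genes in 0 of 6, and 20.2% of all 27025 genes with a window held it. The CCAAT box was in 20 of 25 mitotic, 9 of 10 S phase and 2 of 6 G1 genes, against 41.1% of all genes. An E2F motif was in 5 of 10 S phase genes (Mcm3, Mcm5, Mcm6, Mcm7 and Rrm1), 1 of 25 mitotic and 1 of 6 G1 genes, against 4% of all genes. Of 22 CHR matches in mitotic windows 17 had their centre within 50 bases of the start. The share of matches so placed over all genes was not computed, so this count has no background beside it. The 17 mitotic genes with the CHR element had a median log2 fold change of 1.92 in UUO (range -1.09 to 2.93) and the 8 without it 1.72 (range -0.99 to 2.40). These matches describe letters in a window and were not tested as binding sites.

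**Figure D2:**
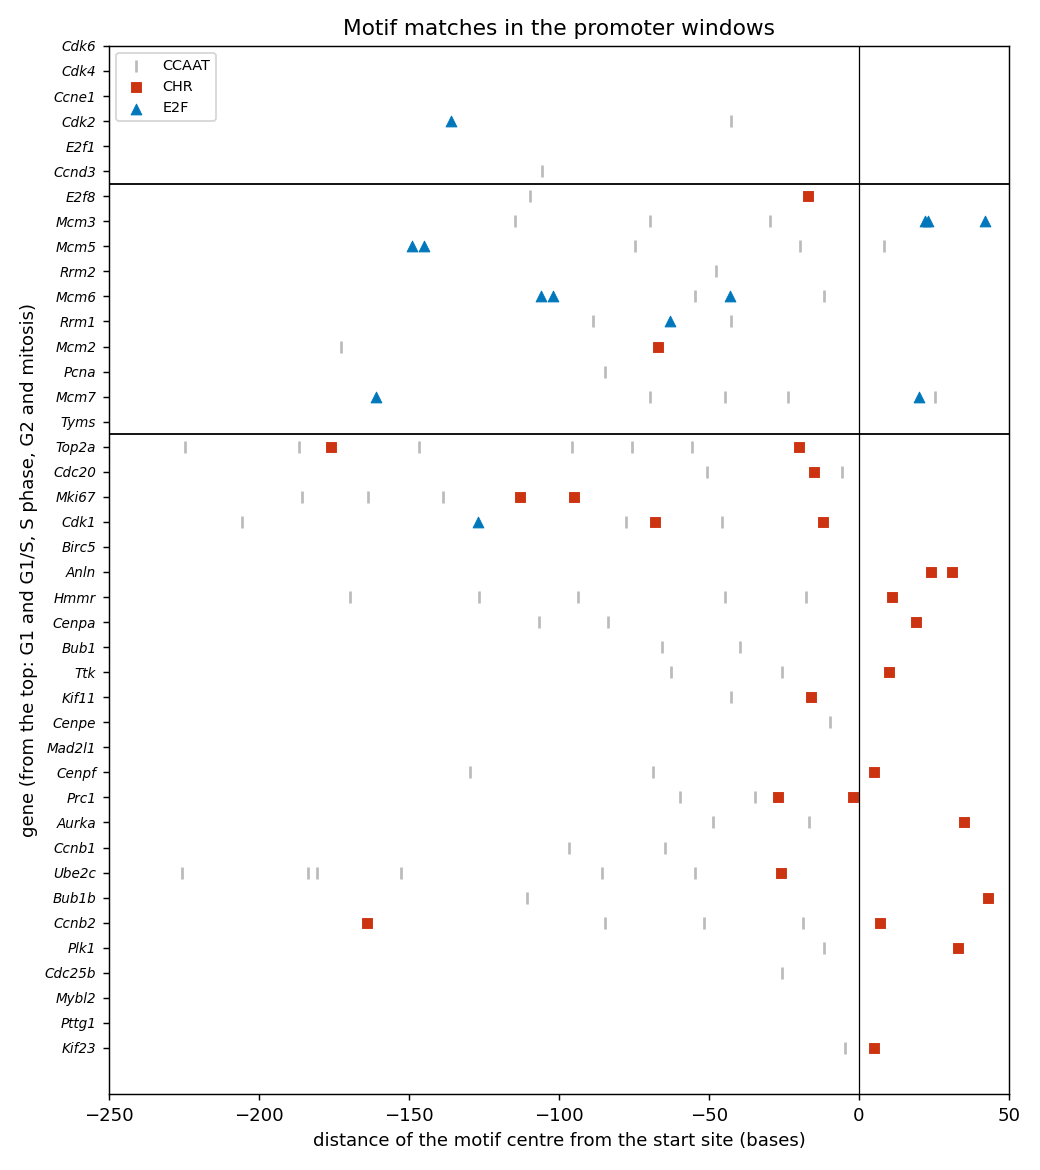
Centre of each CHR (red squares), CCAAT (grey bars) and E2F (blue triangles) match in the promoter windows of 41 genes, in bases from the start site, with genes in order of phase and of fold change in UUO; for genes with more than 1 window each match is plotted from its own start. CHR matches are in 17 of 25 mitotic genes, mostly near the start, and E2F matches in 5 of 10 S phase genes.

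Within groups, the spread of the mitotic genes differed from group to group by description, and no test was made of it. The median over mitotic genes of the SD of log2 CPM was 0.54 in sham, 0.25 in UUO and 0.40 in UUO_Si, against 0.24, 0.25 and 0.25 over all genes tested. For G1 genes it was 0.15, 0.20 and 0.21, and for S phase genes 0.26, 0.17 and 0.21. Sham 3 was the highest sham library for 25 of the 31 mitotic genes. Some of these genes had few counts in sham, such as Cdc20 with 2, 3 and 8. The part of both in the SD of sham was not tested. The summed level of mitotic genes was 204, 201 and 269 CPM in sham, 547 to 692 CPM in UUO (median 601) and 523 to 934 CPM in UUO_Si (median 594). The 934 CPM belonged to UUO_Si 3, and the other libraries of that group lay between 523 and 632 CPM. UUO_Si 3 was the highest of its group for 24 of the 31 mitotic genes, and without it the median SD in UUO_Si was 0.30.

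UUO_Si 3 also had the highest sum for 48 other mitosis genes, at 856 CPM against 538 to 581 CPM in the rest of its group. Among the cell type markers it had the highest fibroblast sum of UUO_Si, at 5203 CPM against 3714 to 4521, and the lowest sums for collecting duct (211 CPM against 250 to 330) and urothelium (79.4 CPM against 97.5 to 155). Its sums were also the lowest for endothelium (567 CPM against 583 to 695) and neutrophils (20.7 CPM against 21.9 to 36.4). Its macrophage sum of 1146 CPM lay inside the range of the others, and the share of the ribosomal RNA transcript Rn45s was the highest of its group at 4.45%. The part of these in its mitotic level was not tested.

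**Figure D3:**
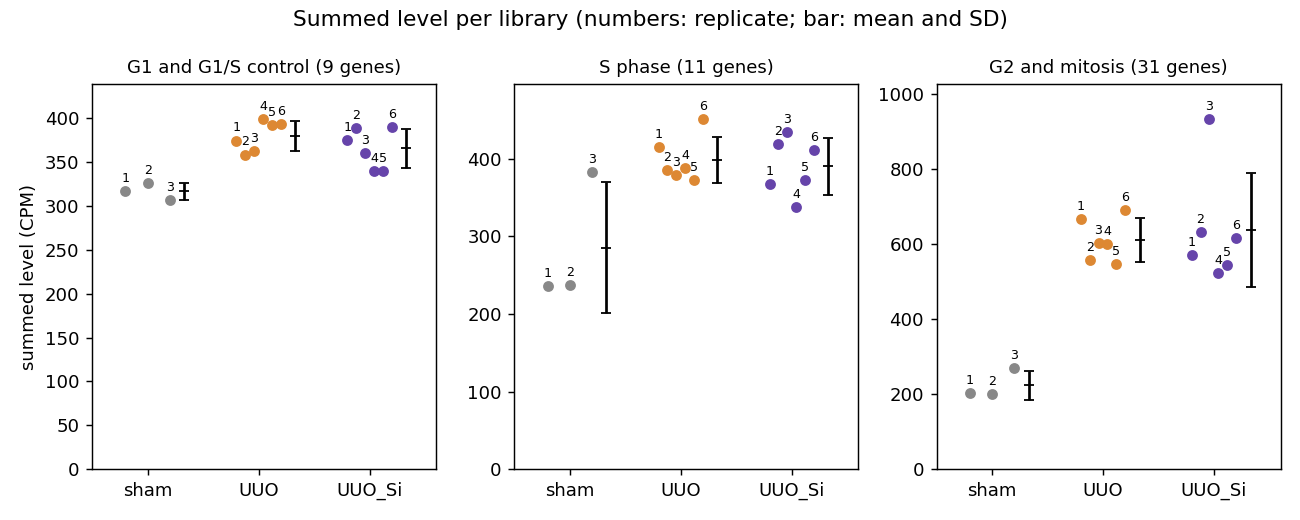
Summed level (CPM) of the G1, S phase and mitotic genes in each library (points, numbered by replicate), with the mean and SD of each group beside them. Mitotic genes lie at 201 to 269 CPM in sham and 523 to 934 CPM in the obstructed libraries, the highest being UUO_Si 3, and in S phase sham 3 lies at 383 CPM, inside the obstructed range.

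For S phase genes the summed level was 236, 237 and 383 CPM in sham, 373 to 451 CPM in UUO (median 386) and 338 to 434 CPM in UUO_Si (median 392). Sham 3 overlapped both obstructed groups here, and its Tyms level of 219 CPM was a large part of its sum. G1 genes summed to 316, 326 and 306 CPM in sham, 358 to 399 CPM in UUO (median 383) and 339 to 389 CPM in UUO_Si (median 367), without overlap between sham and the obstructed groups. The ratio of the mean UUO sum to the mean sham sum was 1.20 for G1, 1.40 for S phase and 2.72 for mitotic genes. Per kilobase, the median level over G1 genes was 2.25 CPM per kb in sham and 3.68 in UUO. It was 2.53 and 9.06 for S phase genes, and 0.721 and 2.44 for mitotic genes. Each median was taken within its group, and the gene at the median differed between groups, so these pairs are not fold changes of a gene.

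**Figure D4:**
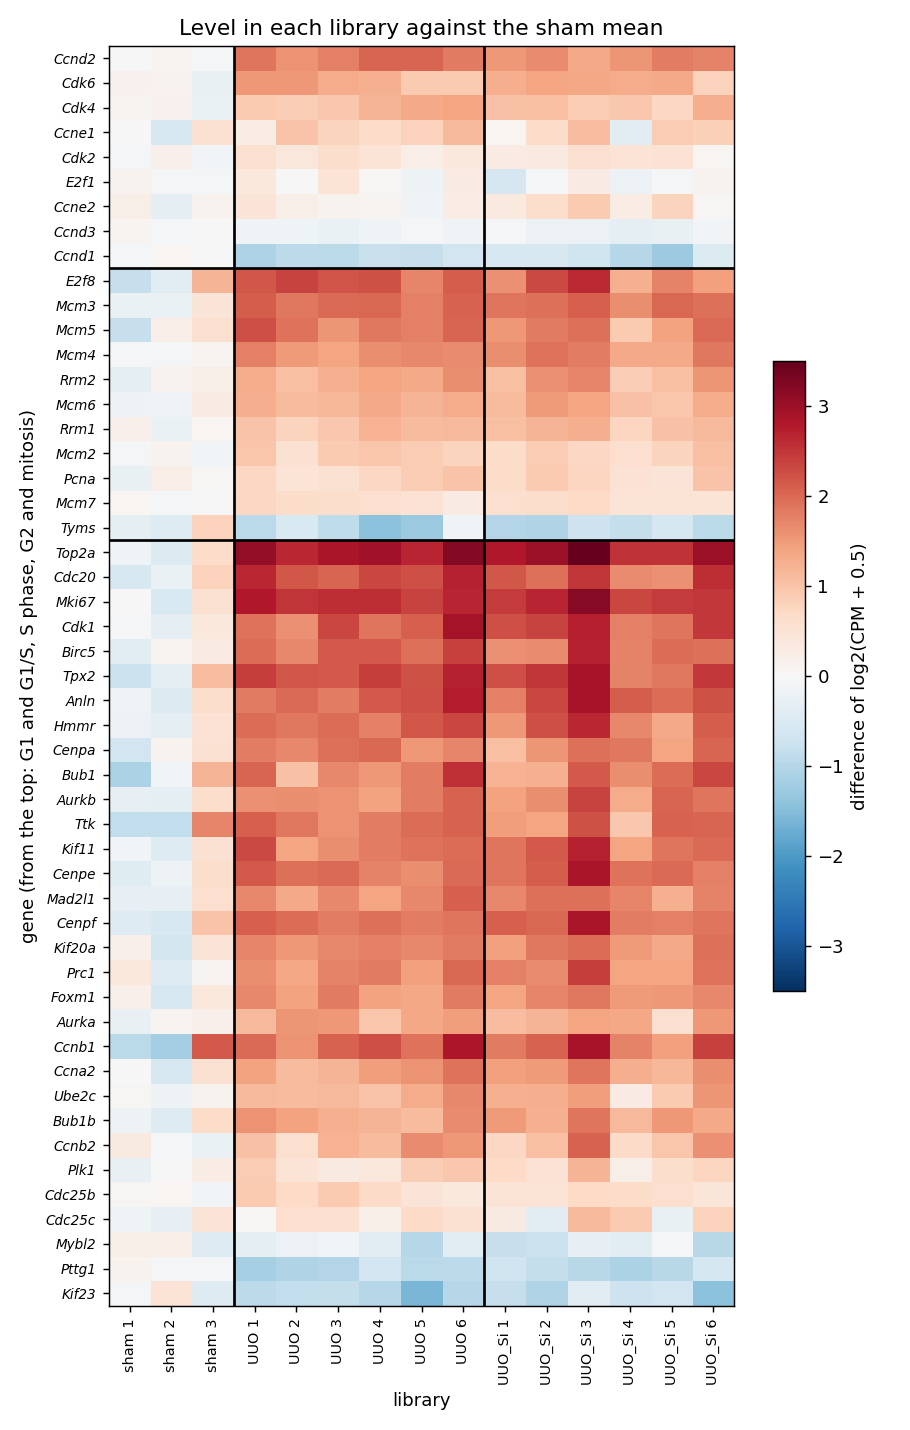
Level of each of the 51 genes (rows, by phase and fold change in UUO) in each of the 15 libraries (columns), as the difference of log2(CPM + 0.5) from the sham mean, red where higher and blue where lower. Most S phase and mitotic rows are red in all 12 obstructed libraries, Ccnd1, Tyms, Pttg1 and Kif23 are blue in most of them, and sham 3 is redder than the other sham libraries in the mitotic rows, most of all for Ccnb1 and Ttk.

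Other cell cycle genes, from 3 lists drawn up from general knowledge, were read beside the members in UUO against sham. Over all genes tested 27.5% were called higher and 26.4% lower. Of 33 other replication genes 22 rose (66.7%) and 1 fell (3.03%), with a median log2 fold change of 0.80. The highest were Uhrf1 (3.06 ± 0.29), which keeps DNA methylation through replication, and Dtl (2.54 ± 0.52), an adaptor of a ubiquitin ligase of S phase. Mcm10 (-0.41 ± 0.31; adjusted p = 0.281), which helps activate the replicative helicase, did not pass. Of 48 other mitosis genes 34 rose (70.8%) and 2 fell (4.17%), with a median of 1.30. The kinase gene Melk (3.41 ± 0.44) and the kinetochore gene Ndc80 (3.13 ± 0.51) were highest, and Cit (-0.97 ± 0.22), which encodes citron kinase of cytokinesis, and the kinetochore gene Spc25 (-0.90 ± 0.18) were the 2 that fell.

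Genes that hold the cycle back changed in both directions. Of 18 such genes 17 were tested, and 8 rose (47.1%) and 3 fell (17.6%), with a median log2 fold change of 0.29 in UUO. Over all genes tested the shares were 27.5% higher and 26.4% lower. The list is small, and no test was made over it. The CDK inhibitor genes Cdkn2b (2.1 ± 0.27; adjusted p = 4.34e-06) and Cdkn1a (1.90 ± 0.17; adjusted p = 7.30e-08), which encode p15 and p21, rose most. Tob1 (-1.13 ± 0.14), an antiproliferative gene, and Rb1 (-0.60 ± 0.14), the retinoblastoma gene, were lowest, and both passed the test.

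The comparison of UUO_Si with UUO asks what the silicon-based agent did to these genes in obstructed kidneys. No cell cycle gene was called in either direction, and 0% of all 16752 genes were called by edgeR, while DESeq2 called 0 genes higher and 2 lower, none of them members. At an unadjusted p under 0.05 there were 2 members, Ccnd2 and Ccne2, where 3.74% of all genes reached it. The median log2 fold change was -0.07 for G1, -0.01 for S phase and 0.03 for mitotic genes. No member had the groups without overlap, as 0.203% of all genes did. UUO_Si 3 had the highest summed mitotic level of its group, so leaving it out moves the fitted mitotic values down by the choice itself. Without UUO_Si 3 the mitotic median was -0.10, that of all genes tested was -0.0015, and 0 members were called. This shift describes 1 library and is no measure of the diet.

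Ccnd2 was lower in UUO_Si, with a mean of 81.6 ± 9.41 CPM against 97.2 ± 11.9 CPM in UUO, a log2 difference of -0.25 (95% interval -0.45 to -0.06; adjusted p = 0.999 in edgeR's test). Ccne2 was higher, at 8.39 ± 1.99 against 6.51 ± 0.94 CPM, with 0.36 (0.00 to 0.72; adjusted p = 0.999 in edgeR's test). In both genes the groups overlapped and neither difference passed. Mcm5 (-0.28, interval -0.71 to 0.15) and Cdc20 (-0.27, interval -0.81 to 0.27) had the lowest fitted values of the 51. Mki67 had 0.03 (interval -0.31 to 0.36), Top2a 0.07 (-0.33 to 0.47) and Foxm1 0.02 (-0.29 to 0.33).

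The intervals show how large a difference the data leave possible. For 50 of the 51 members the 95% interval lay within a 2-fold change in either direction, the exception being Ttk (-0.17, interval -1.19 to 0.84). Around the fitted value the interval reached 0.23 in the median for S phase genes, 0.25 for G1 genes and 0.44 for mitotic genes on the log2 scale. These values are not limits of detection, since a call also had to pass the adjustment over all 16752 genes. Ccnd2 and Ccne2 had intervals that left out 0 and were still not called, so larger differences could be missed. A p-value that misses the threshold does not show that the groups were alike.

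UUO_Si against sham shares its sham libraries with UUO against sham, so its values are set beside those and are not a separate test of them. In it 39 members were called higher and 4 lower, where 27.2% and 25.5% of all genes were. The 4 were again Ccnd1 (-0.74 ± 0.14), Tyms (-0.97 ± 0.27), Kif23 (-0.89 ± 0.22) and Pttg1 (-0.89 ± 0.14). Tyms lost this call without sham 3 (-0.45; adjusted p = 0.136 in edgeR's test). Without the 4 libraries with receptor gene counts it was at -0.43 (adjusted p = 0.0463). By phase 4 of 9 G1, 10 of 11 S phase and 25 of 31 mitotic genes rose, with medians of 0.53, 1.23 and 1.84. Of the risen genes, Cdk2 lost its call without sham 1, sham 3 or UUO_Si 3 (adjusted p = 0.0506 to 0.0933 in edgeR's test). Plk1 lost it without sham 1 or sham 2 (0.0571 to 0.0996) and Bub1 without sham 1 (0.0506). Mki67 had a log2 fold change of 2.58 ± 0.23, Top2a 3.0 ± 0.30, Mcm3 1.94 ± 0.16 and Ccnd2 1.62 ± 0.13. Ttk, called in UUO, was not called in UUO_Si (1.75 ± 0.76; adjusted p = 0.0614), though it was without sham 3 (adjusted p = 2.35e-05) and without the 4 libraries with receptor gene counts (adjusted p = 7.23e-05). The difference between the obstructed groups was not called for it either.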

How the data were processed

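RNA was measured in 15 kidney libraries, 3 sham, 6 UUO and 6 UUO_Si, each labelled with day 14. Per the labels' protocols, RNeasy was used to extract total RNA from samples held in RNAlater, and a SMARTer stranded kit for low input of total RNA gave the libraries. The authors deposited a table of expected counts per gene symbol (estimated counts, not normalised, some of them fractional), which were rounded to whole counts here. The submitters' processing notes name the build mm10 and the tools TopHat2 2.1.1 and Cuffdiff 2.2.1; the role of each, the gene annotation and the strand setting of the counting are not given in the sources used here. Of the 51 members, 29 had fractional values in at least 1 library and 5 in all 15 (E2f1, Tyms, Cenpf, Birc5 and Ube2c). In GENCODE M21 on GRCm38, which gave positions and exon lengths, exons of 17 members overlap a gene on the other strand, whose reads may be mixed in.

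Counts were scaled with TMM and filtered with filterByExpr (minimum count 10), leaving 16752 genes. All libraries entered a single fit with 1 mean per group in edgeR 4.0.16 (robust quasi-likelihood test, R 4.3.3), with Benjamini-Hochberg adjustment over all genes tested and calls at an adjusted p of 0.05. The SE of a log2 fold change is its size over the square root of F. Alternatives were other scaling (upper-quartile or RLE), a minimum count of 30 or no filter, DESeq2 1.42.0, a fit on the 2 groups compared, removal of Rn45s and haemoglobin genes, of each library in turn, of the 4 libraries with receptor gene counts, of the code series RM6 and RM7, and the replicate number as a block. The fit was tested on simulated data. No library was a copy of another. Sample titles carry a code, whose meaning is not given in the sources used here. UUO titles hold the series RM3 and RM6, UUO_Si titles RM4 and RM7, and sham titles RM1. No series is found in more than 1 group, so a difference between groups cannot be told apart from one between series. Within the obstructed groups, RM6 (UUO 5 and UUO 6) and RM7 (UUO_Si 6) were exactly the libraries with counts in many receptor genes. Code series and receptor gene counts thus cannot be told apart there. In sham all titles hold RM1, and only 1 library had such counts. Removal of RM6 and RM7 therefore differs from removal of the 4 libraries only in that sham library.

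The members and lists were chosen with earlier results of these data known, so no p-value is given over a list. Values in every library are given, in each phase, for the 3 genes with the smallest p in UUO against sham, the 2 with the smallest p in UUO_Si against UUO, the highest level per kilobase, the lowest and highest fold change and the genes called against most of their list, and for Mki67. Other genes are named only as lowest, highest or not called in a group, or where a call or level rests on a few libraries. The division of the lists into roles was made after values had been seen. Of the other lists Knl1 and Sgo1 were found under older symbols. Promoter windows were from RefSeq (GRCm38.p6), 300 bases each, and a gene counted as holding a motif if any of its windows did. Values of 1 gene of the other replication list are not reported here.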

Additional observations from a re-analysis of the deposited data

Results flagged for a closer look

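In groups of 6, a library was marked where its gap to the next took up an unusually large part of the group's range (Dixon's criterion at 95%), which chance gives in about 1 in 20 groups; 6 of 42 groups tested were marked. In UUO_Si, replicate 3 stood high for Mki67 (243 CPM against 136 to 170 in the others), Top2a (104 against 46.9 to 66.8 CPM), Cenpe (63.4 against 29.2 to 37.2 CPM) and the summed level of mitotic genes (934 against 523 to 632 CPM). Those genes are part of that sum, so the marks are not separate. In the same group replicate 6 stood low for Cdk6, at 37.8 CPM against 52.5 to 56.5 CPM. In UUO replicate 5 stood low for Kif23, at 14.1 CPM against 21.4 to 24.1 CPM. UUO_Si 6 and UUO 5 are among the 4 libraries with counts in many receptor genes, and the part of that in these values was not tested.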

How the results depend on the processing

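Of 398 recomputed list values (counts of calls, medians and summed levels) 388 stayed within the spread or 1.5 times the count, and 10 moved. The moved values all kept their direction. Without sham 3 or the 4 libraries with receptor gene counts the S phase median in UUO against sham was 1.40 and 1.39, and over all libraries left out in turn it ran from 1.17 to 1.40. The mitotic median ran from 1.51 (without sham 2) to 2.27 (without sham 3), and was 2.22 without the 4 libraries. In UUO_Si against sham it ran from 1.63 to 2.34, and was 2.34 without the 4. With the mean of log2 CPM in place of the sum, the log2 ratio of UUO to sham was 0.54 for G1, 1.18 for S phase and 1.62 for mitotic genes, against 0.26, 0.48 and 1.44; a mean of logs gives low genes equal weight. The cause of the other shifts was not tested.

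Over the genes given in full, 827 recomputed values kept direction and call. Mki67 in UUO_Si against UUO, at 0.03, turned to -0.02 without UUO 5, -0.12 without UUO_Si 3 and -0.00078 with the replicate block, none of them called, and ran from -0.12 to 0.084 with libraries left out in turn. Tyms lost its call without sham 3 in both comparisons with sham, and Kif23 without sham 2 in UUO_Si. Ccne2 in UUO_Si against sham (0.53; adjusted p = 0.0557) passed under 5 settings, with adjusted p down to 0.0243.

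Libraries with the same replicate number did not as a rule deviate together. The correlation was -0.39 to 0.75 over 6 pairs of UUO and UUO_Si and -0.29 to 0.19 over 3 pairs of sham and UUO. In 5 of 24 checks a library was closest to its own number. The 0.75 was UUO 6 with UUO_Si 6, both with counts in many receptor genes. Between groups, pairs among the 4 libraries with such counts had correlations from 0.13 (sham 3 with UUO 5) to 0.75. The cause of this was not tested. With the replicate number as a block, 41 members rose and 4 fell in UUO against sham, with a mitotic median of 1.89, and 0 were called between UUO_Si and UUO. Sham totals of 5.53 to 8.31, in units of 1000000 counts, leave genes such as Ccnb1, Ttk, Ccne1 and Cdc25c with few counts, which limits their fold changes.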
